A study of Arabidopsis thaliana with 18 samples.

Results

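The genes described here are those of the plastid genome of Arabidopsis thaliana, measured in the natural accession Kin-0 after treatment with salicylic acid (SA), through which plants signal defence. Members were the probe sets that the platform annotation assigns to exactly 1 plastid gene and whose signal was above the 40th percentile of its array on at least 3 of 18 arrays. All 69 such probe sets passed, each for a different gene, of 15212 probe sets tested and 22746 on the array apart from controls. A further 8 probe sets are listed with both copies of a gene of the plastid inverted repeat, or with the same symbol listed again, and were left out by that rule. The gene table lists 78 protein-coding symbols on the plastid genome. The 69 members are 5 genes of photosystem I, 15 of photosystem II, 6 of the cytochrome b6f complex, 6 of the ATP synthase, 10 of the NADH dehydrogenase-like (NDH) complex, 15 ribosomal proteins, 4 subunits of the plastid RNA polymerase and 8 others. RNA came from Kin-0 plants given SA at 0.30 mM with the surfactant silwet at 0.02%, or that surfactant alone, and sampled 4, 28 or 52 h later. Each of these 6 groups had 3 biological replicates, numbered 1 to 3 in the labels. The labels name no tissue, plant age or growth condition, and each SA value is set against silwet of the same time.

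The plastid genome is a remnant of the genome of a cyanobacterium and encodes core subunits of the photosynthetic complexes and part of the machinery that expresses them. Most other plastid proteins, including many subunits of the same complexes, are encoded in the nucleus. Plastid genes lie in clusters that are transcribed together by a bacterial-type polymerase, whose core subunits are plastid genes, and by phage-type polymerases from nuclear genes, and the long transcripts are then cut, trimmed and edited. Transcript levels therefore depend on processing and stability as well as on transcription. Mature plastid messages carry no long stable poly(A) tail, and the priming of the RNA for labelling is not given in the labels.

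The values are linear MAS5 signals, scaled by the authors to 1 level per array. Changes below are differences of log2 signal, so 1 is a doubling, and a gene was called where limma's p, adjusted by Benjamini-Hochberg over all 15212 probe sets, was under 0.05. The 40th percentile of signal, used as the filter level, lay between 16.0 and 20.7 on the 18 arrays. Of the 69 members, 63 were above it on every array. The exceptions were psbN (17 arrays), ndhH (16), petG (14), rps14 (8), rpoB (8) and ndhF (6). The 7 nuclear photosynthesis genes with a named probe set, of 45 listed, were all tested. Their mean log2 signal was between 11.2 and 11.7 on every array. Of the root, flower and senescence markers listed, none was tested, so other tissues and leaf age were not checked. In these bulk samples fewer green cells, fewer plastid genomes per cell and less RNA per plastid gene cannot be told apart.

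Plastid signals varied more between replicates than those of most probe sets, and they did so together. The median SD within groups was 0.563 log2 units over the 69 members, against 0.401 over all probe sets tested. The mean log2 signal of the 69 members ranged from 8.22 (SA 28 h, replicate 2) to 9.48 (SA 52 h, replicate 1). The mean of all probe sets tested ranged from 6.17 to 6.42. That range is limited by the scaling of each array to 1 level and by the 15212 probe sets averaged. No other gene set of 69 was compared. Replicate 3 had the highest plastid mean in each of the silwet groups and in the SA groups at 4 and 28 h. The mean of all probe sets tested was also highest in replicate 3 in 4 of 6 groups, within its much narrower range, whereas that of the 7 nuclear photosynthesis genes was lowest in replicate 3 in 5 of 6. At SA 52 h the order differed, with replicate 1 at 9.48, replicate 2 at 8.85 and replicate 3 at 8.64. That replicate 3 array was also the one with the lowest signal on the 25S rRNA control probe set, 0.701 against 2.96 to 12.7 on the other 17 arrays. All of these values lie under the filter level, where MAS5 signals are noisy, so they do not grade the arrays. Several 52 h results that SA 52 h replicate 3 moved are also given below without that array.

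**Figure D1:**
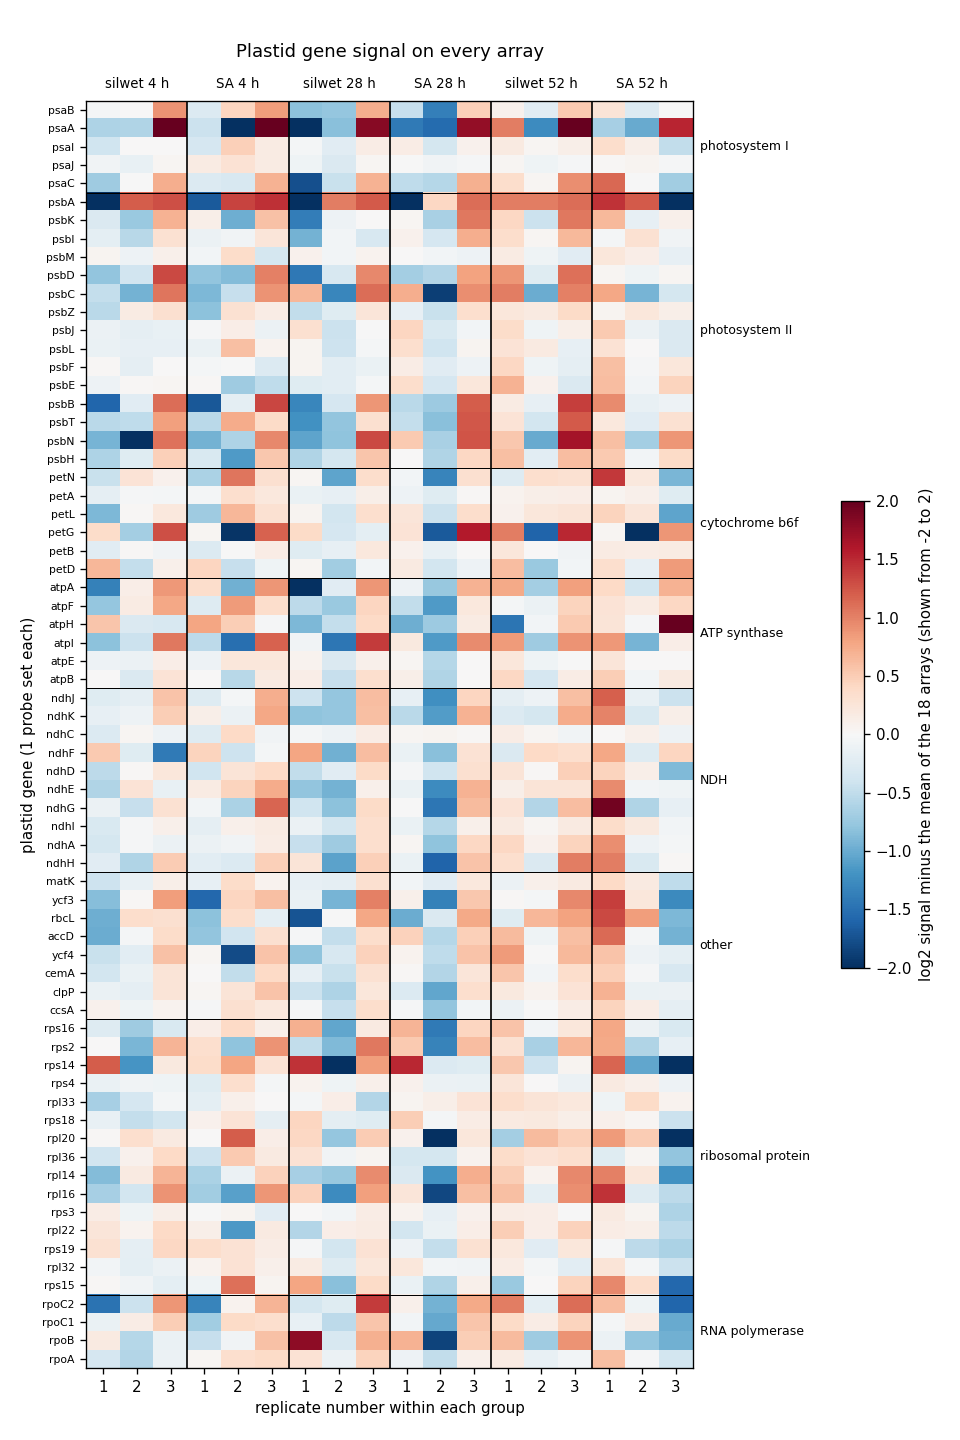
Signal of each of the 69 plastid genes (rows, by class) on each of the 18 arrays (columns, replicates 1 to 3 of 6 groups), as log2 signal minus that gene's mean over all arrays, with colours limited to -2 and 2. Replicate 3 columns are red for most genes at 4 and 28 h under both treatments, the replicate 2 column of SA 28 h is blue for nearly all, and within SA 52 h replicate 1 is the red column.

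Of the 69 members, 55 had a higher mean in replicate 3 than in replicate 2 over the 6 groups, with a median difference of 0.46, against 7390 of 15212 probe sets and a median of -0.01 in the whole table. For 16 members all 6 replicate 3 arrays were above all 6 replicate 2 arrays (background 0.736% of all probe sets), and for none was the reverse true. Those 16 included the photosystem genes psaA, psbB, psbC, psbD, psbH, psbK and psbN, the ATP synthase genes atpA, atpB and atpI, and ndhG, ndhH and ndhK. For 3 members, psaA, psbT and psbN, every replicate 3 array was above every replicate 1 array (background 5.96%). In a fit with the replicate number as a term, the replicate number was called for 30 of 69 members by limma's F test (background 50.4%). The share of members called was thus no higher than in the whole table, while the direction of the differences was more one-sided. By class, the median difference of replicate 3 from replicate 2 was 0.73 in photosystem I, 0.61 in the ATP synthase, 0.60 in the polymerase, 0.47 in the NDH complex, 0.37 in photosystem II, 0.12 in the cytochrome b6f complex and -0.03 in the ribosomal proteins. Within the groups, 66 of 69 members were higher in replicate 3 than in replicate 2 at silwet 28 h and 65 at SA 28 h, but 27 at SA 52 h. What the replicates of 1 number shared is not stated in the labels. The contrast was chosen after seeing the data.

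**Figure D2:**
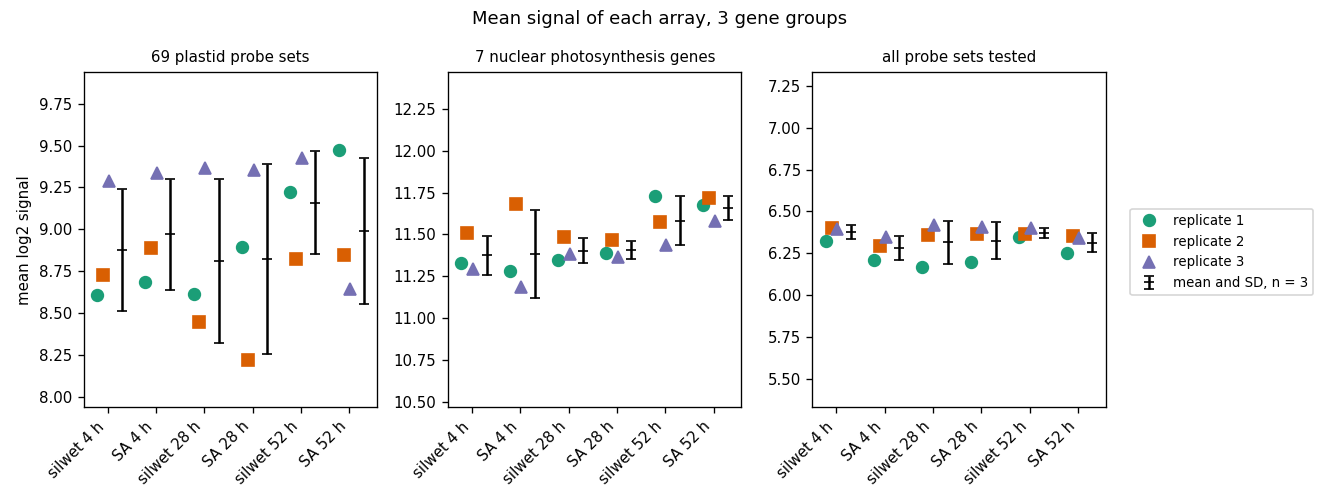
Mean log2 signal on each array of the 69 plastid probe sets, of 7 nuclear photosynthesis genes and of all probe sets tested, by group, with symbols for the replicate number and bars for the group mean and SD (n = 3). Vertical axes span the same 2 log2 units. The plastid means spread from 8.22 to 9.48 with replicate 3 on top in 5 of 6 groups, while the other panels are tighter, with replicate 3 lowest in 5 of 6 groups for the nuclear genes and highest in 4 of 6 for all probe sets.

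The core of photosystem I, which reduces ferredoxin, held the member with the strongest replicate pattern. psaA, a reaction centre protein, had signals of 129, 131 and 1279.9 on replicates 1, 2 and 3 of silwet at 4 h and 148, 35.2 and 1060.3 of SA at 4 h. At 28 h psaA read 74.2, 68.5 and 674 after SA and 35.5, 111 and 699.7 after silwet, and at 52 h 125, 99.0 and 570.2 after SA and 402, 83.3 and 867 after silwet. Replicate 3 was highest in all 6 groups and above every array of the other replicate numbers, with a mean difference of 3.34 from replicate 2 on the log2 scale (F test adjusted p = 4.26e-05). Its partner psaB, the second reaction centre protein, read 1733, 1789 and 3324 after silwet and 1471, 2411 and 3183 after SA at 4 h, on replicates 1, 2 and 3. At 28 h psaB read 1297, 693 and 2475 after SA and 1012, 1039 and 2962 after silwet, and at 52 h 2139, 1484 and 1767 after SA and 1896, 1530.2 and 2571 after silwet. Here too replicate 3 was highest, except at SA 52 h, where replicate 1 was. psaJ, a small peripheral subunit, varied little, from 1632 to 2425 over the 18 arrays.

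psbA encodes the D1 protein of photosystem II, which is damaged by light and replaced continually. Its signal fell into separate ranges, at most 317 on 5 arrays and at least 1349 on the other 13. At 4 h psbA read 317, 2590.2 and 2774 after SA and 242, 2340.4 and 2462 after silwet, at 28 h 168, 1349 and 2204 after SA and 32.4, 2047 and 2381 after silwet, and at 52 h 2743, 2373 and 82.6 after SA and 2064, 2059.8 and 2186 after silwet. The low arrays were replicate 1 of both treatments at 4 and 28 h and replicate 3 of SA at 52 h, so they occur under both treatments and at every time. No other member had a gap as wide between neighbouring arrays, the next being 1.44 log2 units for psaA against 2.09 for psbA. psbM, a small subunit of the same complex, stayed between 2626 and 4325, and so its array values did not show the psbA pattern.

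The members differed widely in their spread. The highest array was under 2 times the lowest for 15 members and over 10 times the lowest for 8. In the cytochrome b6f complex, which passes electrons between the photosystems, petB (cytochrome b6) had the narrowest range of all members, from 2613 to 3690.0, a 1.41-fold range. By SD within groups psaJ, at 0.0879 log2 units, and petA (cytochrome f), at 0.142, were steadier than petB, at 0.162. petG, a small subunit of the same complex, ranged from 10.4 to 135. Its replicate 2 arrays lay at 10.4, 14.5 and 35.6 (lowest, median and highest of 6), and its replicate 3 arrays at 39.6, 106 and 135, without overlap. The ribosomal protein gene rps4 stayed within a 1.49-fold range and the cytochrome assembly gene ccsA read 2016, 2547 and 2361 after SA and 2174, 1941 and 2143 after silwet at 4 h.

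**Figure D3:**
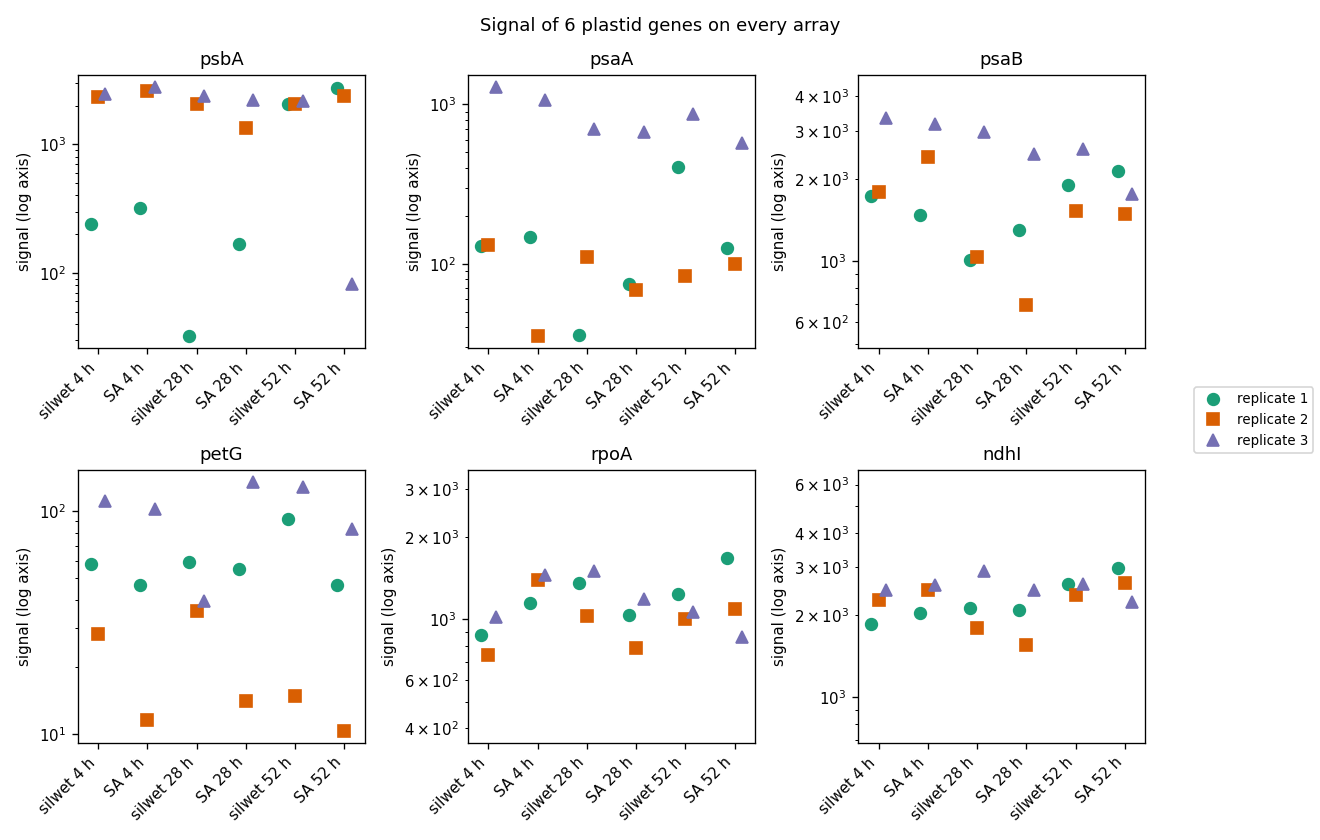
Signal on every array (log axes) of psbA, psaA, psaB, petG, rpoA and ndhI, by group, with symbols for the replicate number. psbA drops to 317 or less on 5 arrays of mixed treatment, psaA is highest in replicate 3 of every group, the replicate 2 arrays of petG all lie below its replicate 3 arrays, and rpoA after SA at 4 h lies above all 3 silwet arrays of that time.

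The comparison of SA with silwet at 4 h asks whether plastid transcripts respond early to the hormone. No member was called, against 121 of 15212 probe sets in the table (0.795%), and 2 had an unadjusted limma p under 0.05 (12.7% of all probe sets). With the replicate number as a block, 1011 probe sets were called (6.65%) and again no member. The 69 changes lay between -0.65 and 0.63 with a median of 0.14, and 48 were positive (69.6%), against 41.3% of all probe sets and a median of -0.09. The replicate pairs differed in plastid mean by 0.08, 0.16 and 0.05, all higher after SA. Their mean was 0.096 ± 0.059 (SD, n = 3 pairs), with a two-sided exact sign-flip permutation p of 0.25, the smallest that 3 pairs can give. Without SA 4 h replicate 3 the median was -0.03, and without silwet 4 h replicate 3 it was 0.30. In each of these fits the partner of the same number was kept. Replicate 3 had the highest plastid mean in both 4 h groups, so these medians cannot test the direction that the pairs share.

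By class at 4 h, all 10 NDH genes had a positive change (0.10 to 0.62, median 0.16), as did 11 of 15 ribosomal proteins (median 0.22), 4 of 6 ATP synthase genes (0.18), 4 of 6 cytochrome b6f genes (0.15), 3 of 4 polymerase genes (0.17), 4 of 5 photosystem I genes (0.04), 8 of 15 photosystem II genes (0.02) and 4 of 8 others (-0.01). The NDH complex carries cyclic electron flow around photosystem I. Most of its genes are listed in the ndhH to ndhD or the ndhC-ndhK-ndhJ transcription unit, so these 10 values are not all independent. ndhE, a membrane subunit, had a change of 0.62 (95% interval -0.28 to 1.52, limma adjusted p = 0.614). After SA its signal on replicates 1, 2 and 3 was 309.4, 376 and 461, against 181, 331 and 247 after silwet, and the groups overlapped. ndhI, the subunit that holds iron-sulphur clusters, read 2036, 2481 and 2582 after SA and 1861, 2266 and 2476 after silwet, a change of 0.11.

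The lowest adjusted p at 4 h belonged to rpoA, the alpha subunit of the plastid polymerase. After SA its signal on replicates 1, 2 and 3 was 1144, 1395 and 1454, against 879.8, 741 and 1024 after silwet. All SA arrays were above all silwet arrays, and the change was 0.60 (95% interval 0.10 to 1.097, limma adjusted p = 0.282), or 0.0886 with the replicate block. rps16, a protein of the small ribosomal subunit, also did not overlap between groups. After SA its signal on replicates 1, 2 and 3 was 79.4, 95.3 and 78.8, against 61.1, 44.3 and 59.1 after silwet, a change of 0.63 (95% interval -0.41 to 1.67, limma adjusted p = 0.673). In all, 5 members lay wholly above silwet (rps16, psbL, psaJ, rpoA and rpl32), a share close to the background of 7.95%, and none lay wholly below, as 1527 of all 15212 probe sets did. psaJ was the other member with an unadjusted p under 0.05 (0.0254 by limma). After SA its signal on replicates 1, 2 and 3 was 2231, 2425 and 2215, against 1883, 1800.4 and 2032 after silwet, a change of 0.27.

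The lowest changes at 4 h were those of psaA, petG and rpl22, and in each SA replicate 2 was the lowest of the 6 arrays. psaA had -0.65 (95% interval -3.62 to 2.31, limma adjusted p = 0.902). Its change was 0.51 without SA replicate 2 and 0.45 without silwet replicate 3, its highest array, each with the partner of the same number kept. petG read 46.6, 11.6 and 102 after SA and 58.0, 28.3 and 111 after silwet, a change of -0.58 (95% interval -2.70 to 1.54, limma adjusted p = 0.878), and without SA replicate 2 it was 0.28, although all 3 same-numbered pairs were lower after SA. rpl22, a protein of the large ribosomal subunit, read 722, 299 and 747 after SA and 780.2, 694 and 870.0 after silwet, where all 3 pairs were lower after SA too. Its change was -0.52 (95% interval -1.18 to 0.15, limma adjusted p = 0.556), and -0.083 without SA replicate 2. On the array of SA 4 h replicate 2 the ratio of 3' to 5' control probe sets was 2.65 on the log2 scale, against 1.18 to 2.26 on the others. With that ratio as a covariate the changes were 0.21 for psaA, -0.50 for petG and -0.35 for rpl22, and none was called.

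At 28 h no member was called and no probe set of the table was either (0.00%). Without the block no member had an unadjusted limma p under 0.05, against 0.348% of all probe sets. With the replicate block 1 had, and the share of all probe sets in that fit is not given. None lay wholly above or below silwet (background 1.02% and 1.24%). The median of the members was 0.00, with 36 of 69 positive (52.2%), against 0.01 and 52.8% in the table. The pairs differed in plastid mean by 0.28, -0.22 and -0.01 for replicates 1, 2 and 3, so they had no common direction. Without SA 28 h replicate 2, on which 2 of 69 members were above their group mean, the median was 0.30, and without replicate 3 it was -0.18. The silwet partners were kept, so these medians also shift with the difference between replicate numbers.

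**Figure D4:**
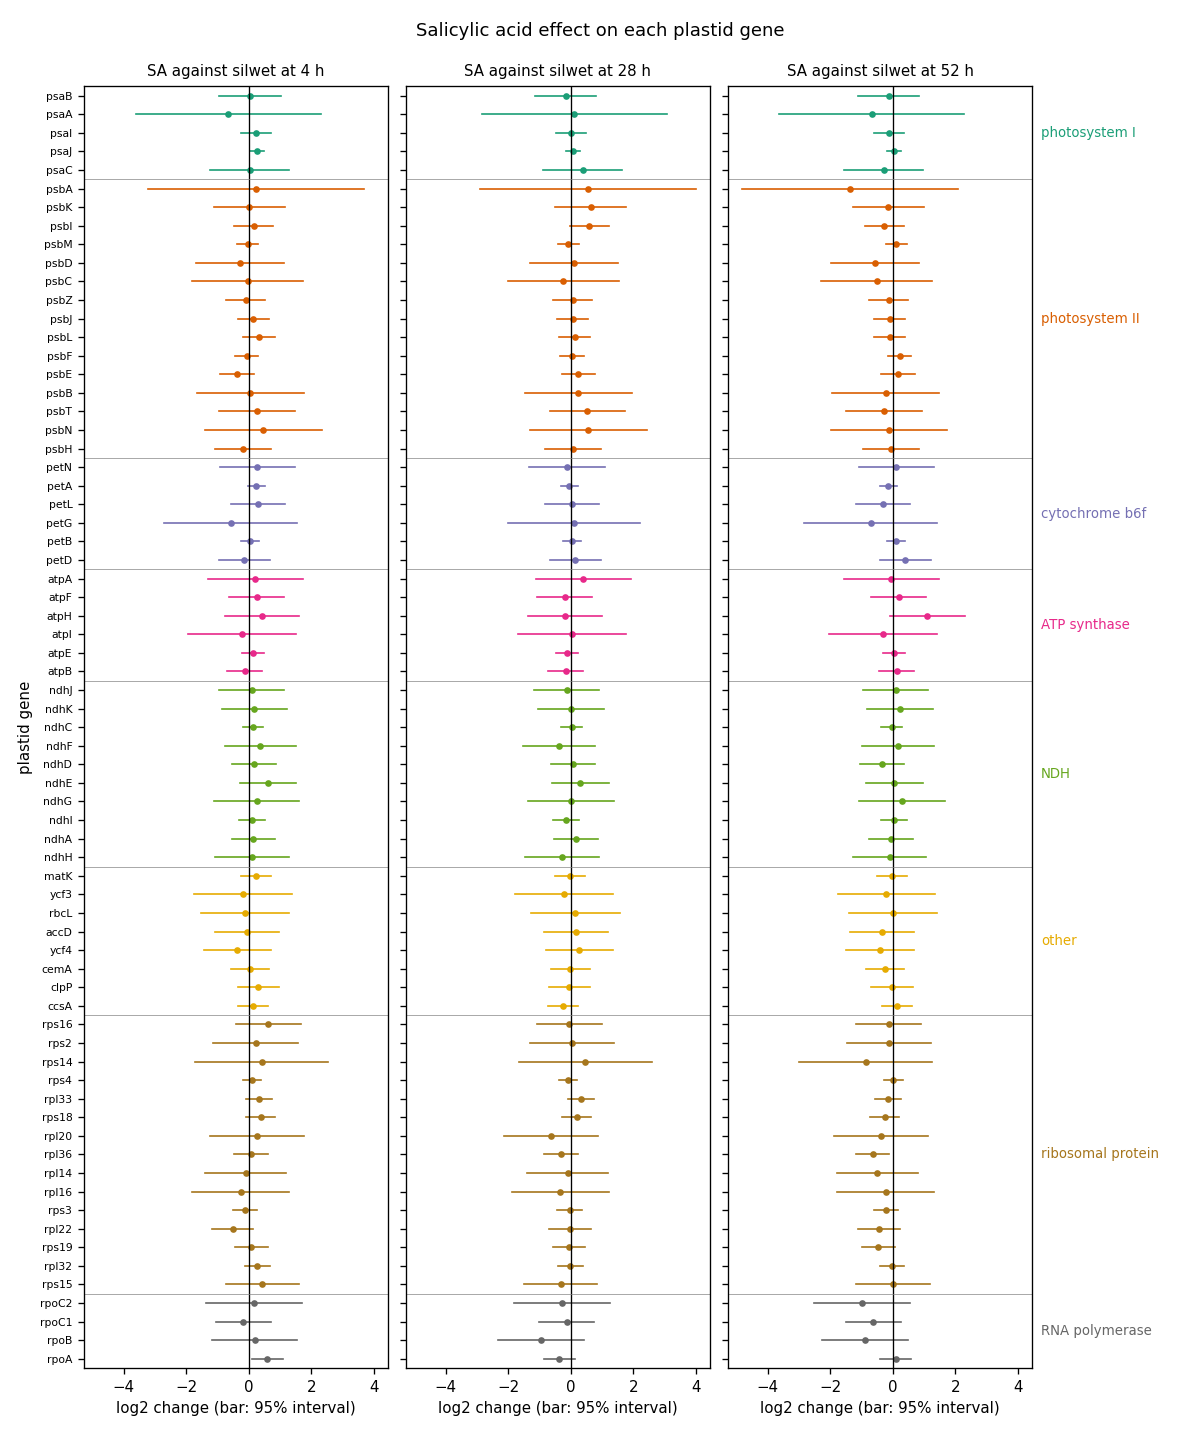
Log2 change of each of the 69 plastid genes after SA against silwet at 4, 28 and 52 h (points) with limma's 95% interval (bars), grouped and coloured by class. Most points lie within 0.5 of 0 at every time, nearly all bars cross 0, and the bars of psbA, psaA, rps14 and petG are the widest.

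Of the photosystem II genes, 13 of 15 had positive values at 28 h, with a median of 0.13. psbK and psbI, small subunits encoded side by side, had among the highest. psbK read 622, 386 and 1254 after SA and 231, 564 and 606 after silwet, a change of 0.64 (95% interval -0.50 to 1.78, limma adjusted p = 1.00). psbI read 531, 399 and 826 after SA and 261, 483 and 401 after silwet, a change of 0.60 (95% interval -0.03 to 1.22, limma adjusted p = 1.00). In both the silwet replicate 1 value was the lowest of its group while replicate 2 was lower after SA than after silwet. psbN, which is transcribed from the strand opposite its neighbours and takes part in photosystem assembly, read 64.2, 28.5 and 107 after SA and 21.4, 25.5 and 111 after silwet, a change of 0.56 (95% interval -1.30 to 2.43, limma adjusted p = 1.00). Its groups overlapped as well.

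The polymerase genes had the lowest class median at 28 h, -0.33, with all 4 negative. rpoB, the beta subunit, read 27.0, 4.66 and 23.6 after SA and 57.7, 13.4 and 27.4 after silwet, a change of -0.95 (95% interval -2.32 to 0.43, limma adjusted p = 1.00). Each of its arrays after SA was below the silwet array of the same number, but the groups overlapped, and several values were near or under the filter level. The ribosomal protein gene rpl20 read 178, 40.03 and 196 after SA and 223, 97.8 and 238 after silwet, a change of -0.63 (95% interval -2.14 to 0.87, limma adjusted p = 1.00). All 3 same-numbered pairs were lower after SA and replicate 2 was the lowest array of both groups. Without SA replicate 2, with its silwet partner kept, the change was 0.11. ndhF read 13.0, 7.96 and 17.4 after SA and 24.6, 7.31 and 21.8 after silwet. All 3 of its SA arrays were under the filter level, and no fold is given because its silwet mean was under that level too.

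At 52 h again no member was called and no probe set of the table (0.00%). By unadjusted limma p under 0.05 there was 1 member, rpl36, against 0.960% of all probe sets. With the replicate block there were 3 members, and the share of all probe sets in that fit is not given. The median was -0.13 with 22 of 69 positive (31.9%), against -0.03 and 45.1% in the table. Pairs 1 and 2 differed in plastid mean by 0.25 and 0.02 and pair 3 by -0.78. Without SA 52 h replicate 3 the median was 0.08, and without SA 52 h replicate 1 it was -0.37, each with its silwet partner kept. Wholly below silwet were 3 members, rpoC1, rps18 and rpl36 (background 3.89%), and none wholly above (background 2.45%). rpl36, a small protein of the large ribosomal subunit, read 1149, 1393 and 781 after SA and 1739.8, 1631 and 1704 after silwet, and its highest SA array was below the lowest silwet array. Its change was -0.65 (95% interval -1.19 to -0.11, limma adjusted p = 1.00).

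At 52 h 13 of 15 ribosomal protein genes had negative values, with a median of -0.22, and the polymerase median was -0.76. Class medians were not taken without SA 52 h replicate 3, the array without which the median of all members was 0.08. rpoC2, the beta double-prime subunit, read 225, 138 and 48.8 after SA and 299, 128 and 316 after silwet, a change of -0.999 (95% interval -2.54 to 0.54, limma adjusted p = 1.00), and -0.38 without SA replicate 3. rpoC1, the beta-prime subunit, read 264, 301 and 135 after SA and 354, 302 and 371 after silwet, and its change was -0.63. In both genes SA replicate 3 was the lowest array. rpoB read 15.5, 9.72 and 8.55 after SA and 25.8, 10.2 and 31.0 after silwet. All SA arrays of rpoB were under the filter level there. With them raised to that level, its silwet mean was 1.11-fold higher. Silwet replicate 2 was under the level too and was not raised, so 1.11 is not a lower bound. rpoB was not called (limma adjusted p = 1.00). rpoA, which lies in another cluster with ribosomal protein genes, read 1680.3, 1094 and 863 after SA and 1241, 999 and 1068 after silwet, a change of 0.09.

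psbA had the lowest change of any member at 52 h, -1.37 (95% interval -4.83 to 2.09, limma adjusted p = 1.00). Its only low array at that time was SA replicate 3, and without that array the change was 0.28. atpH, the subunit of the ATP synthase that forms its membrane ring, had the highest. After SA its signal on replicates 1, 2 and 3 was 346, 284 and 1208, against 104, 277 and 412 after silwet. SA replicate 3 was high here, on the array where most members were low, and it was above every other atpH value in the study, which lay between 104 and 495. The change of atpH was 1.11 (95% interval -0.09 to 2.30, limma adjusted p = 1.00), and 0.46 without SA replicate 3. petD, subunit IV of the cytochrome b6f complex, read 70.5, 49.6 and 101 after SA and 85.5, 33.2 and 53.4 after silwet, a change of 0.41, and its groups overlapped. ndhG read 597, 103 and 141 after SA and 190.3, 104 and 241 after silwet, where SA replicate 1 stood alone at the top. Its change of 0.29 became -0.48 without that array.

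The limits on these SA values can be stated as intervals. All intervals given are from the fit without the replicate block, so they also hold the differences between replicate numbers. The median SD of the members was 0.563 in that fit and 0.451 with the block. The 95% intervals reached a median of 0.892 to each side at each time. The interval lay within 1 log2 unit of 0 on both sides for 29 members at 4 h, 32 at 28 h and 29 at 52 h. For the others the interval reached a 2-fold change on at least 1 side, and it also held 0 for all of them but rpoA at 4 h and rpl36 at 52 h.

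The SA effects at different times were compared by testing the difference between them. For 28 h minus 4 h no member was called, against 4 of all probe sets (0.0263%). With the replicate block 2 members had an unadjusted limma p under 0.05, with no share of all probe sets given for that fit. Without the block 1 member had (6.39% of all probe sets). That member was rpoA, with a difference of -0.97 (95% interval -1.67 to -0.26, limma adjusted p = 0.556) from a positive change at 4 h to -0.37 at 28 h, where it read 1036, 788 and 1192 after SA and 1356, 1025 and 1507 after silwet. Other low values were -1.13 for rpoB and -0.90 for rpl20, and the highest were 0.76 for psaA, 0.69 for petG and 0.64 for ycf4, a photosystem I assembly factor. ycf4 read 1103, 311 and 1598 after SA and 787, 933 and 1611 after silwet at 4 h and 1132, 757 and 1601 after SA and 614, 857 and 1473 after silwet at 28 h, with SA 4 h replicate 2 the low array, and without it the difference was -0.05. The median of the members was -0.10, against 0.09 in the table.

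For 52 h minus 4 h no member was called, again against 4 of all probe sets (0.0263%), and none had an unadjusted limma p under 0.05 (6.16% of all). With the replicate block 2 members had such a p, and none was called. The share of all probe sets in the block fit is not given. The median was -0.25 with 13 of 69 positive (18.8%), against 0.04 and 53.9% in the table, and both differences use the same 4 h arrays. Without all replicate 3 arrays that median was -0.01. The lowest values were -1.61 for psbA, -1.28 for the ribosomal protein gene rps14 and -1.16 for rpoC2. Without SA 52 h replicate 3 they were 0.043, -0.41 and -0.54. rps14 read 18.4, 24.7 and 17.5 after SA and 32.9, 6.28 and 16.3 after silwet at 4 h and 32.1, 6.96 and 2.44 after SA and 20.8, 10.7 and 14.8 after silwet at 52 h, with most values near or under the filter level. The highest were 0.68 for atpH (0.029 without SA 52 h replicate 3), 0.55 for psbE and 0.54 for petD. psbE, a subunit of cytochrome b559 in photosystem II, read 1654, 993 and 1137 after SA and 1502, 1638 and 1663 after silwet at 4 h and 2489, 1568 and 2197 after SA and 2624, 1715 and 1329.8 after silwet at 52 h, and the groups overlapped at both times.

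Between 4 and 28 h, with both treatments averaged, 1948 probe sets were called (12.8%), 811 higher and 1137 lower, but no plastid gene. With the replicate block 3951 of 15212 were called, and psaB was among them (limma adjusted p = 0.0229). Without the block none of the 69 had an unadjusted limma p under 0.05, which 25.5% of all probe sets had. With the block 5 members had, and the share of all probe sets in that fit is not given. The members' changes had a median of -0.08, from -0.89 to 0.53, and their intervals reached a median of 0.631 to each side. The sampling times lie 24 h apart. The hour of day was the same if all groups were treated at the same hour, which the labels do not state. All 5 photosystem I genes had negative values (median -0.33). psaB had the lowest of them, -0.68 (95% interval -1.37 to 0.02, limma adjusted p = 0.208), with a lowest, median and highest signal of 1471, 2100.0 and 3324 over the 6 arrays at 4 h and 693, 1168 and 2962 at 28 h, so the ranges overlapped. psbA had -0.89 and atpH -0.62. atpH read 231, 343 and 495 at 4 h and 146, 190.2 and 377.1 at 28 h (lowest, median and highest). The highest values were 0.53 for psbN, 0.39 for rpoC2 and 0.33 for rpoB. psbN read 9.89, 26.2 and 94.5 at 4 h and 21.4, 46.4 and 111 at 28 h, rpoC2 52.5, 131 and 268.8 and 76.4, 141 and 387, and rpoB 11.3, 15.6 and 24.9 and 4.66, 25.3 and 57.7. All of these ranges overlapped.

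Between 28 and 52 h no member was called, against 1 of all probe sets (0.00657%), and none had an unadjusted limma p under 0.05 (2.94% of all probe sets). With the replicate block 11 members had an unadjusted limma p under 0.05, and again none was called. The share of all probe sets in the block fit is not given, so the 11 cannot be set against a background. Of the 69 members 60 had positive values (86.96%, against 54.8% of all probe sets), with a median of 0.24 against 0.03. Replicate 3 did not share that direction. In the silwet arrays 57, 59 and 35 of 69 members were higher at 52 h in replicates 1, 2 and 3, and in the SA arrays 61, 65 and 10, and the plastid mean differed by 0.61, 0.38 and 0.059 and by 0.58, 0.63 and -0.71. All 15 photosystem II, 8 other, 6 ATP synthase and 5 photosystem I genes were positive, 9 of 10 NDH genes, 5 of 6 cytochrome b6f genes, 3 of 4 polymerase genes and 9 of 15 ribosomal protein genes. The median was 0.33 in the silwet arrays alone and 0.15 in the SA arrays alone, and between 0.12 and 0.34 when each of the 12 arrays was left out in turn. The 7 nuclear photosynthesis genes tested were positive too, with a median of 0.16 and none called. Members vary together across arrays, so their signs are not independent. rbcL, the large subunit of the carbon-fixing enzyme Rubisco, had one of the highest values, 0.66 (95% interval -0.34 to 1.67, limma adjusted p = 0.995). It read 54.1, 163 and 306.3 at 28 h and 96.1, 300.4 and 449 at 52 h (lowest, median and highest). psbA had 1.00 and psaA 0.74. psaA read 35.5, 92.6 and 699.7 and 83.3, 264 and 867, and psbA 32.4, 1698 and 2381 and 82.6, 2125 and 2743. The lowest values were -0.46 for rps14, -0.43 for rpoB and -0.10 for rps19, and each of these had overlapping ranges. Without SA 52 h replicate 3 the value of rps14 was -0.027. rps19, of the small ribosomal subunit, read 345, 457 and 591 at 28 h and 307, 440.2 and 559 at 52 h.

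Co-variation was described by Pearson's r of each gene's deviations from its group means over the 18 arrays, which share their libraries and scaling. Over the 2346 pairs of members the median r was 0.47, and 14.0% of pairs were negative. The 94 pairs of genes listed as transcribed in 1 unit had a median r of 0.59, against 0.47 for the other 2252 pairs. The units differed widely, so these medians do not describe each unit. In the unit from ndhH to ndhD, which holds NDH genes with psaC (the iron-sulphur subunit of photosystem I), all 21 pairs had r of at least 0.56, with a median of 0.74. The 21 pairs of the rpl23 to rpoA unit had a median of 0.52. Whether the 94 pairs exceed the others without the ndhH to ndhD unit was not tested. psbK and psbI had r = 0.82, and the 3 pairs among rpoB, rpoC1 and rpoC2 a median of 0.59. Other units did not vary as 1. The 10 pairs among petL, petG, psaJ, rpl33 and rps18 had a median of 0.06, and the psaA-psaB-rps14 unit 0.21. The highest values over all pairs were between genes of different units, 0.97 for psaI and petL and 0.96 for rpl14 and ndhD, and the lowest was -0.72 for rpl33 and ndhF. atpH and rpl33 each had a median r of -0.10 with the other members.

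**Figure D5:**
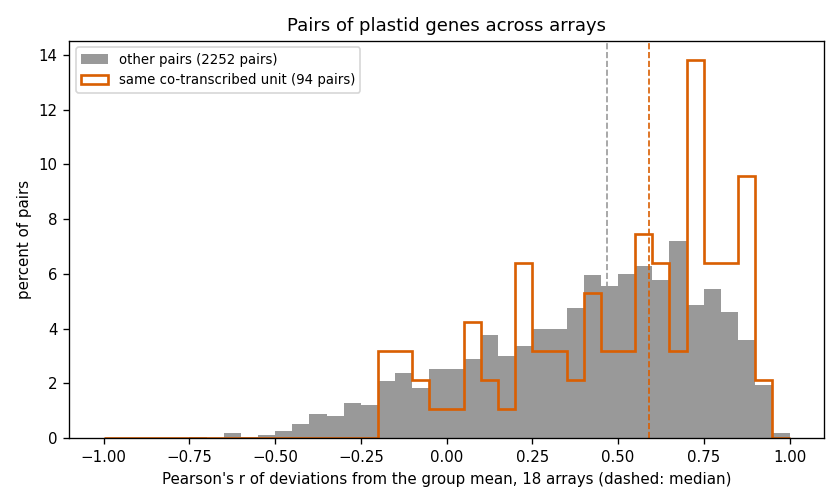
Distribution of Pearson's r between plastid genes (deviations from group means, 18 arrays) for 94 pairs in the same co-transcribed unit (outline) and 2252 other pairs (filled), as percent of each set, with medians dashed. The medians are 0.59 and 0.47, and the ranges of the sets overlap widely. The same-unit set includes 21 pairs of the ndhH to ndhD unit, all with r of at least 0.56.

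Nuclear genes that work with these members mostly had no named probe set, meaning 1 that the annotation used assigns to that gene alone. The annotation covers 14016 of the 22810 probe sets, so a gene without a named probe set may still be on the array. None of the 6 sigma factors, which direct the plastid polymerase to promoters, of the 13 polymerase-associated proteins or of the 7 plastid RNA maturation factors listed had a named probe set. Of the phage-type polymerases, AT5G15700 (RpoTmp) was tested and not called in any comparison, with changes after SA of -0.73, -0.19 and -1.76 at 4, 28 and 52 h (limma adjusted p = 0.846, 1.00 and 1.00). Of 45 nuclear photosynthesis genes listed 7 had a named probe set, and none of these was called in any comparison. Of 27 nuclear genes listed for plastid ribosomal proteins 6 had a named probe set. None of the 6 was called, except that the replicate block called AT3G54210 (PRPL17) at 28 h against 4 h (0.25, limma adjusted p = 0.0499). The nuclear NDH subunits NdhL and NdhN, the 2 of 9 listed that were tested, differed from the plastid NDH genes between 4 and 28 h in their calls. NdhL rose by 0.84 (SE 0.21, limma adjusted p = 0.0124) and NdhN by 0.68 (SE 0.19, adjusted p = 0.0254), while of the 10 plastid NDH genes 2 had positive values and none was called (median -0.15). The difference between these sets was not itself tested. Of 18 probe sets for mitochondrial genes 11 were tested and none was called, except nad1 at 28 h against 4 h with the replicate block (0.72, limma adjusted p = 0.0143). Their median change was 0.27 after SA at 4 h, with 8 of 11 positive, and -0.33 from 28 to 52 h, where the plastid median was 0.24.

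The 8 probe sets listed with 2 gene entries were tested and none was called in any comparison. They cover rps12 (2 probe sets), rpl2, rpl23, ycf2, ndhB, rps7 and ycf1. Among them ycf2, which encodes part of a protein import motor, had the lowest change at 4 h, -1.03 (limma adjusted p = 0.283).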

How the data were processed

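The authors deposited 1 table of linear signal intensity with 1 column per array. Per the submitters' processing notes it was made with MAS5, whose version and settings are not given in those notes. Over each array the 2% trimmed mean of intensity was 100.01 on every array, so each deposited array had been scaled to 1 level. No 2 arrays were identical. Low MAS5 intensities are noisy once logged, and detection calls were not used here.

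From these intensities log2 values were taken as they stood. Tests used the 15212 of 22746 probe sets (64 controls left out) that passed the 40th percentile on at least 3 arrays. Group means of the 6 groups were estimated from all 18 arrays with limma 3.58.1 (R 4.3.3), without a block and with eBayes moderated along an intensity trend, which left 12 residual degrees of freedom. Adjusted p-values are Benjamini-Hochberg over all tested probe sets of 1 of 7 comparisons. The number of arrays limits the precision. What the biological replicates shared is not stated, so p-values measure the spread between these arrays.

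Gene names came from the platform annotation (13513 probe sets with 1 gene, 503 with several) and symbols from the TAIR10.1 gene table. No build is named for the array, so no coordinates are given, and no probe sequences were used here. The annotation, the members and the gene lists were taken with earlier results of these data known. For each comparison the 3 members with the highest and the 3 with the lowest change were named. Most were given with signals on single arrays or with a lowest, median and highest signal. Also named was 1 member of each class, the one with the highest mean signal (psaJ, psbM, petB, atpB, ndhI, rps4, rpoA and ccsA). All of these but atpB were given with a range or with signals on some arrays. Other members named were chosen after their values were seen. A member under the filter level on every array of a group was raised to that level there, and its fold was taken from the raised values.

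Same-numbered arrays deviated together from their group means over all tested probe sets, with r of 0.71, 0.18 and 0.67 between SA and silwet at 4 h, 0.82, 0.61 and 0.64 at 28 h, and 0.36, 0.20 and 0.30 at 52 h. The numbers come from the labels and were taken as pairing these arrays. The fit with the replicate block is quoted where it moved a count by more than 1.5 times. Those counts are of calls and of members with an unadjusted p under 0.05. Other fits used median centring, quantile normalization, a pseudocount of 5.55, a 60th percentile filter or none, no intensity trend, only the arrays compared, the 3' over 5' ratio of control probe sets as a covariate, each treatment alone for the time comparisons, and all arrays but 1 in turn. The F test of the replicate number, the fit without all replicate 3 arrays and the fit with both block and covariate were added after seeing the data. A fit without 1 array kept the other arrays of its number, so its values also shift where replicate numbers differ. The fits were tested on simulated data. Python 3.11.15 with matplotlib 3.10.9 drew the figures.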

Additional observations from a re-analysis of the deposited data

How the results depend on the processing

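No plastid gene was called in any of the 7 comparisons under any of the fits run, with the exception of 28 h against 4 h. There the replicate block called psaB (-0.68, limma adjusted p = 0.0229) and the block with the 3' over 5' covariate called 2 genes, psaB (-0.60) and psaA (-0.86). Same-numbered arrays at 4 and 28 h had r of 0.63, 0.39 and 0.54 under silwet and 0.63, 0.088 and 0.64 under SA, so 5 of 6 pairs were over 0.1 and the call of psaB depends on whether the block is used. The intervals were widest for psbA, psaA, petG and rps14, of which rps14 had signals near the filter level. Of 949 values of single plastid genes under other fits, 920 kept their sign. The genes counted were those with the highest and lowest changes of each comparison. Replicate number differences of psaA, petG and psbN were counted too, and most fits share most arrays. The count therefore does not measure how stable plastid gene changes are. For the values that changed sign the cause was not tested beyond the arrays left out.

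Calls over the whole table moved more. With the block they numbered 1011 for SA at 4 h, 119 and 126 for the SA effect at 28 and at 52 h minus that at 4 h, 3951 for 28 h against 4 h and 2 for 52 h against 28 h. With the block and covariate these were 823, 66, 145, 4175 and 0, with the covariate alone 205, 7, 18 and 0 (28 h against 4 h moved less than 1.5 times), and without all replicate 3 arrays 5, 0, 0, 348 and 0. SA at 4 h gave 187 calls with the 60th percentile filter and 11 from only the arrays compared. The effect at 28 minus 4 h gave 2 with median centring and 1 from only the arrays compared. The effect at 52 minus 4 h gave 2 with quantile normalization, 2 with median centring and 7 with the offset. Silwet alone gave 92 calls for 28 h against 4 h. For 52 h against 28 h there were 0 with median centring, the offset, silwet alone or SA alone, and 2 without the trend. The replicate number was called for 4835 probe sets with the covariate. Leaving out each array in turn gave 15 to 142 calls for SA at 4 h, 0 to 1 at 52 h, 0 to 5 and 0 to 11 for the differences of SA effects at 28 and 52 h, 1295 to 2243 for 28 h against 4 h and 0 to 1 for 52 h against 28 h. For the replicate number it gave 24 to 44 plastid genes.

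Single genes changed sign as follows, with the range over leaving out each array in turn. For SA at 4 h psaA was 0.21 with the covariate and ranged from -1.95 to 0.51, its positive values coming without silwet replicate 3 (0.45) or SA replicate 2, and petG ranged from -1.29 to 0.28. rpl20 at 28 h ranged from -1.04 to 0.11. At 52 h ndhG ranged from -0.48 to 0.78 (-0.06 without silwet replicate 2), and psbA from -2.25 to 0.28, with 0.31 without all replicate 3 arrays. For the effect at 28 minus 4 h psaA was -0.42 with the covariate and -0.055 with block and covariate, and ranged from -0.41 to 2.05, negative without SA 4 h replicate 2, silwet 4 h replicate 3 (-0.34), SA 28 h replicate 3 (-0.32) or silwet 28 h replicate 1 (-0.23). There petG ranged from -0.17 to 1.56 (-0.070 without SA 28 h replicate 3) and ycf4 from -0.054 to 1.13. psbA at 52 minus 4 h ranged from -2.63 to 0.043 and was 0.039 without all replicate 3 arrays. For 28 h against 4 h psbA ranged from -1.44 to 0.13, and rpoB was -0.23 in SA alone. For 52 h against 28 h psbA ranged from -0.017 to 1.82. rps14 was there 0.047 with the covariate, 0.077 without all replicate 3 arrays and 0.20 in silwet alone. rps19 ranged from -0.19 to 0.0018 and was 0.10 without all replicate 3 arrays and 0.11 in silwet alone.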
